A study of Mus musculus with 6 samples.

Results

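The 10 genes described here encode secreted acute phase proteins of the mouse liver: the serum amyloid A genes Saa1 (gene identifier 20208), Saa2 (20209), Saa3 (20210) and Saa4 (20211), the orosomucoids Orm1 (18405), Orm2 (18406) and Orm3 (18407), haptoglobin Hp (15439), lipocalin 2 Lcn2 (16819) and the serum amyloid P component Apcs (20219). They were taken by symbol from the deposited gene tables, whatever their values, and all 10 were found among the 18444 genes listed in at least 1 of the 6 libraries. Every one of them had reads in all 6 libraries.

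The acute phase response is the change in liver protein output that follows infection or tissue damage. Cytokines such as interleukin-6, interleukin-1 and tumor necrosis factor act on hepatocytes through STAT3, NF-kB and C/EBP factors, and the hepatocytes then secrete more of the positive acute phase proteins and less of others such as albumin. Saa1 and Saa2 are the inducible serum amyloid A proteins that travel on high-density lipoprotein, Saa3 is also made by macrophages and adipocytes, and Saa4 is known as the constitutive member of the family. Orosomucoids are abundant plasma glycoproteins that bind lipophilic molecules, haptoglobin captures free hemoglobin, lipocalin 2 withholds iron-loaded siderophores from bacteria and is also stored in neutrophil granules, and Apcs is a pentraxin that serves as a major acute phase protein of mice.

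RNA was sequenced on a BGISEQ-500 instrument from livers of male C57BL/6 mice (C57BL/6J in the methods), whose age the labels give as 6 to 8 weeks, with 1 library for each of 6 groups. In the diet model the groups were SD (labelled as a chow diet control), HFD (high fat diet, labelled NASH, for nonalcoholic steatohepatitis) and HFD plus JT003, and the methods give 16 weeks of diet with 4 weeks of JT003. An age of 6 to 8 weeks is too young for the end of that diet, and the age at sampling is not stated. In the CCl4 model, in which repeated injections of carbon tetrachloride cause liver fibrosis, the groups were corn oil (the vehicle of CCl4), CCl4 and CCl4 plus JT003, with 6 weeks of injections and 3 weeks of JT003. JT003, an adiponectin-derived peptide agonist of the receptors AdipoR1 and AdipoR2, was injected daily at 500 µg/kg, and the methods give 6 mice per group. Neither the labels nor the methods say whether a library came from a single mouse or from several. The 2 models differ in diet, in injections and in duration, so any difference between their libraries cannot be told apart from those of the models.

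With 1 library per group there are no replicates, and every test and interval below compares 2 libraries and covers counting error only. In bulk liver RNA, more cells of a type and more RNA per cell cannot be told apart. Each library held between 19374236 and 20184557 rounded counts, and the genes described here ranged from 16 reads (Orm3 in SD) to 157884 (Hp in CCl4 plus JT003), so they differed widely in precision. All 10 hepatocyte markers examined, among them Alb, had reads in every library.

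Saa1 and Saa2 lie next to each other on mouse chromosome 7 and are near copies, as are the orosomucoids on chromosome 4, which bears on how their reads could be assigned. In the GENCODE transcripts, Saa1 and Saa2 were identical at 93.9% of aligned positions and Orm1 and Orm2 at 91.0%. Of the 50-base stretches of a transcript, 14.8% of those of Saa1 and 20.4% of those of Orm1 were also found in another of the 10 genes, against 0% for Saa4, Hp, Lcn2 and Apcs. The authors' estimated counts split such reads between genes, so Saa1 and Saa2, and Orm1 to Orm3, are also given as sums.

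RefSeq promoters (build GRCm38.p6, 250 bases before the annotated start) were found for 8 of the 10 genes, not counting Orm1 and Hp. The 6 below were chosen to show how alike the paired promoters are, beside those of Saa4 and Lcn2, which had wide ranges between libraries. Capitals mark each match to the C/EBP motif TTGCNNAA on either strand. Saa1 is at chr7:46742981-46743230 (minus strand), Saa2 at chr7:46751583-46751832 (plus), Saa4 at chr7:46732604-46732853 (minus), Orm2 at chr4:63362199-63362448 (plus), Orm3 at chr4:63355908-63356157 (plus) and Lcn2 at chr2:32387740-32387989 (minus).
Saa1: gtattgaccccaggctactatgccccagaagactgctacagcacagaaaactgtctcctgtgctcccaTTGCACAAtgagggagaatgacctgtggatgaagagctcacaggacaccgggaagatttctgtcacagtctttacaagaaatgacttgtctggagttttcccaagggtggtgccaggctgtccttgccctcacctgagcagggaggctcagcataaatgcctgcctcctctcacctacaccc
Saa2: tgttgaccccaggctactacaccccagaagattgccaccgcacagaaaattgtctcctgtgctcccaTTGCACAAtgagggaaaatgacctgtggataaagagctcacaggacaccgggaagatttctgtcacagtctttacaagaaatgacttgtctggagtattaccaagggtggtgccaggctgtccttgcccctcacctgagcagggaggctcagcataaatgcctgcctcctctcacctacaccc
Saa4: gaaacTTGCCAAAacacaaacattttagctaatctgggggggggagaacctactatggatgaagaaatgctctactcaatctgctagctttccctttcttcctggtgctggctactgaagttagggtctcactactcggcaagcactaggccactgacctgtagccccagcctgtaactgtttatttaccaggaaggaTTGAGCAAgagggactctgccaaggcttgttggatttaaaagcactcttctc
Orm2: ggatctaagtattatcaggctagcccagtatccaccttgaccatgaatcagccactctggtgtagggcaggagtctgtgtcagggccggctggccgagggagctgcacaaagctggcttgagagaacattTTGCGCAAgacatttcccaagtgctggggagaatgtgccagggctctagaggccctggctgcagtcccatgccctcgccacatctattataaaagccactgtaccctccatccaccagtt
Orm3: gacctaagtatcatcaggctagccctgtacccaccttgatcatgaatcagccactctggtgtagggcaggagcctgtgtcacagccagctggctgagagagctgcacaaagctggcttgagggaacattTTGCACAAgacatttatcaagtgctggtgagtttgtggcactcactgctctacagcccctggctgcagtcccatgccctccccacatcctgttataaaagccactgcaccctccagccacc
Lcn2: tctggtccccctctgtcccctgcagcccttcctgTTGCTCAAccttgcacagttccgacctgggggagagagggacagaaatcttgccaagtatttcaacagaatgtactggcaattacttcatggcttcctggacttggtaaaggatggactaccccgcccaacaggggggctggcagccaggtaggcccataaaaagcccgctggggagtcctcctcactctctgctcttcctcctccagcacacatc

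The Saa1 and Saa2 promoters were identical at 94.8% of aligned positions and those of Orm2 and Orm3 at 85.5%, whereas Saa1 and Saa4 shared 42.3%. A C/EBP match was present in 7 of the 8 promoters, the exception being Apcs, and in 9.56% of all 32851 promoters over the same 250 bases. Counted from the start, it began at position -182 in Saa1 and -183 in Saa2, and at -120 in Orm2 and -121 in Orm3, so the closely related pairs held it at nearly the same place. Saa4 held 2 matches, at -245 and -52. The STAT3 motif TTCNNNGAA, searched on both strands, was found only in Apcs and in 7.02% of all promoters, and the NF-kB motif (both strands) in none of the 8 and in 17.6% of all. A match is a description of these letters and not a binding site.

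Saa1 and Saa2 had their highest counts in the untreated chow library of the diet model. The deposited FPKM of Saa1 (reads relative to transcript length and library depth) was 1256 in SD, 816 in HFD, 389 in HFD plus JT003, 419.7 in corn oil, 452 in CCl4 alone and 1193 in CCl4 plus JT003. Saa2 followed the same outline, with 765 in SD, 435 in HFD, 174 in HFD plus JT003, 278 in corn oil, 234 in CCl4 alone and 779 in CCl4 plus JT003. Both genes were therefore high in SD and CCl4 plus JT003 and low in HFD plus JT003, corn oil and CCl4. Saa1 made up 60.1% to 68.9% of their summed counts in every library.

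Saa3 and Saa4 each had a different outline. Saa3, with only 108 to 436 reads, had an FPKM of 28.4 in SD, 24.6 in HFD, 17.3 in HFD plus JT003, 11.0 in corn oil, 42.9 in CCl4 alone and 42.4 in CCl4 plus JT003. Saa4 was lowest in the chow library, at 38.5 FPKM in SD, 334 in HFD, 234 in HFD plus JT003, 78.5 in corn oil, 58.0 in CCl4 alone and 144 in CCl4 plus JT003. The constitutive member of the family thus had a wider range between libraries, 7.96-fold on scaled counts, than the inducible Saa1 at 3.56-fold and Saa2 at 4.83-fold.

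Among the orosomucoids Orm1 dominated, with 92.2% to 97.9% of their summed counts. Its FPKM was 865 in SD, 802 in HFD, 619.95 in HFD plus JT003, 1025 in corn oil, 1603 in CCl4 alone and 1883 in CCl4 plus JT003. Orm2 had an FPKM of 27.5 in SD, 57.0 in HFD, 39.2 in HFD plus JT003, 18.5 in corn oil, 89.8 in CCl4 alone and 101 in CCl4 plus JT003. Both were highest in the CCl4 model's injured libraries. The rare Orm3, with 16 reads in SD and 236 in CCl4 plus JT003, had an FPKM of 1.08 in SD, 11.4 in HFD, 6.94 in HFD plus JT003, 3.57 in corn oil, 2.56 in CCl4 alone and 16.2 in CCl4 plus JT003.

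Haptoglobin was by far the most abundant of the 10 genes and changed least between libraries. Its FPKM was 3315 in SD, 2700.3 in HFD, 2292 in HFD plus JT003, 2720.3 in corn oil, 3072 in CCl4 alone and 6001 in CCl4 plus JT003, a range of 2.43-fold on scaled counts. Lcn2 had the widest range, 37.0-fold, with an FPKM of 42.3 in SD, 87.6 in HFD, 30.6 in HFD plus JT003, 12.8 in corn oil, 162 in CCl4 alone and 601 in CCl4 plus JT003. The corn oil library was the lowest of all for Lcn2 and the CCl4 plus JT003 library stood alone at the top. Apcs had an FPKM of 116 in SD, 83.8 in HFD, 49.4 in HFD plus JT003, 93.6 in corn oil, 122 in CCl4 alone and 232 in CCl4 plus JT003. The counts of Hp, Lcn2 and Apcs were whole numbers in every library.

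Added together, the 10 genes took 0.660% of the counts in SD, 0.592% in HFD, 0.451% in HFD plus JT003, 0.518% in corn oil, 0.625% in CCl4 alone and 1.19% in CCl4 plus JT003. Hp alone made up 61.9% to 71.5% of that in the 6 libraries. When the libraries were ordered gene by gene on TMM-scaled counts, neighbouring libraries differed beyond their 95% counting interval for every gene, apart from the CCl4 and CCl4 plus JT003 libraries for Saa3 and for Orm2. On FPKM the order was the same for 6 of the genes, but corn oil and CCl4 changed places for Saa1 and Hp, SD and CCl4 plus JT003 for Saa2, and SD and CCl4 for Apcs.

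**Figure D1:**
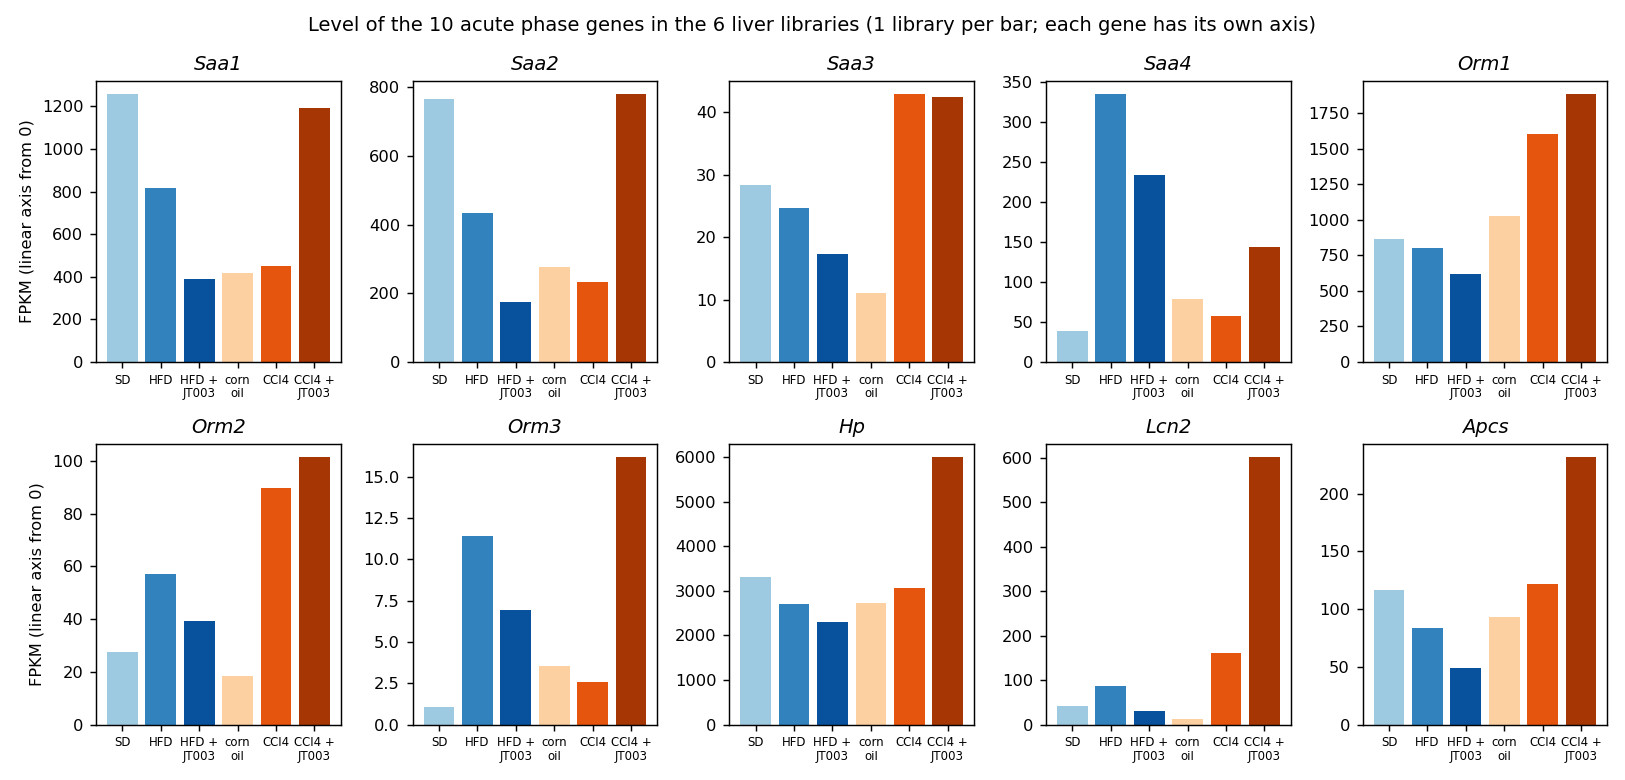
FPKM of each gene (linear axis from 0, one panel per gene with its own axis) in the 6 libraries, 1 bar per library and no error bars because no group has replicates. Saa1 and Saa2 are high in SD and CCl4 plus JT003, Saa4 is highest in HFD at 334, and Lcn2 reaches 601 in CCl4 plus JT003.

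The first comparison asks how the liver of mice on HFD differed from that of mice on SD. The HFD library had higher Saa4 and Orm3 than SD, and 6 of the 10 genes lay below the SD library. Saa4 was 7.95-fold higher (13684 against 1613 reads, log2 ratio 2.99, interval 2.92 to 3.07), and Orm3 rose from 16 to 169 reads (log2 ratio 3.16, interval 2.57 to 4.15). A gene was called here when its reads differed in a two-sided exact binomial test (adjusted p-value under 0.001) and the ratio was 2-fold or more (log2 ratio beyond 1 or -1). By this rule 2 of the 10 genes were called, both higher. Of all 16973 genes tested, 5.38% were called, 2.92% higher and 2.46% lower.

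Below the threshold on size, the HFD library had less Saa2 (log2 ratio -0.94, interval -0.99 to -0.89) and Saa1 (-0.74, interval -0.78 to -0.71) than SD. Orm2 at 0.93 and Lcn2 at 0.92 lay just under a doubling. The log2 ratio was -0.60 for Apcs, -0.42 for Hp, -0.33 for Saa3 (interval -0.59 to -0.08) and -0.23 for Orm1. The sum of Saa1 and Saa2 was at -0.81 and that of the orosomucoids at -0.16, which is the opposite sign to Orm2 and Orm3, since Orm1 outweighs both. The median over the 10 genes was -0.28, against -0.00 over all genes. Scaling by total reads instead of TMM moved the median of all genes by 0.12, brought the members called to 4 (Orm2 and Lcn2 in addition) and raised the share of called genes that were higher from 54.2% to 65.5%.

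JT003 was then compared within HFD, a comparison that shares the HFD library with the one above. All 10 genes had fewer scaled reads in HFD plus JT003 than in HFD, and Lcn2, Saa2 and Saa1 were called lower. Lcn2 fell 2.88-fold (507 against 1442 reads, log2 ratio -1.53, interval -1.68 to -1.38), Saa2 2.52-fold (2027 against 5027, log2 ratio -1.33, interval -1.41 to -1.26) and Saa1 2.12-fold (4492 against 9390, log2 ratio -1.09, interval -1.14 to -1.03). These 3 of 10 stand beside 1.63% called among all 17090 genes, 0.743% higher and 0.884% lower.

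The other members were closer to the HFD library. Apcs was at -0.78, Orm3 at -0.71 (interval -1.09 to -0.36), Orm2 at -0.55, Saa4 at -0.53, Saa3 at -0.52, Orm1 at -0.39 and Hp at -0.25 on the log2 scale. The sum of Saa1 and Saa2 was 2.25-fold lower and that of the orosomucoids 1.32-fold lower. The median over the 10 genes was -0.63, against -0.01 over all genes.

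Set against SD, the HFD plus JT003 library was lower in Saa1, Saa2 and Apcs and higher in Saa4 and Orm3. Saa2 had a log2 ratio of -2.27 (interval -2.34 to -2.20), Saa1 of -1.83 (interval -1.88 to -1.78) and Apcs of -1.37 (interval -1.48 to -1.27). Saa4 was still 5.51-fold and Orm3 5.47-fold above SD. In all, 5 of the 10 genes were called, against 5.93% of all genes (3.16% higher, 2.76% lower). Of those, 53.4% were higher, and 66.6% with total reads. For Saa1, Saa2 and Apcs the JT003 library was thus farther below SD than the HFD library was, while Lcn2 lay at -0.60 relative to SD, below the chow level it had exceeded in HFD.

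**Figure D2:**
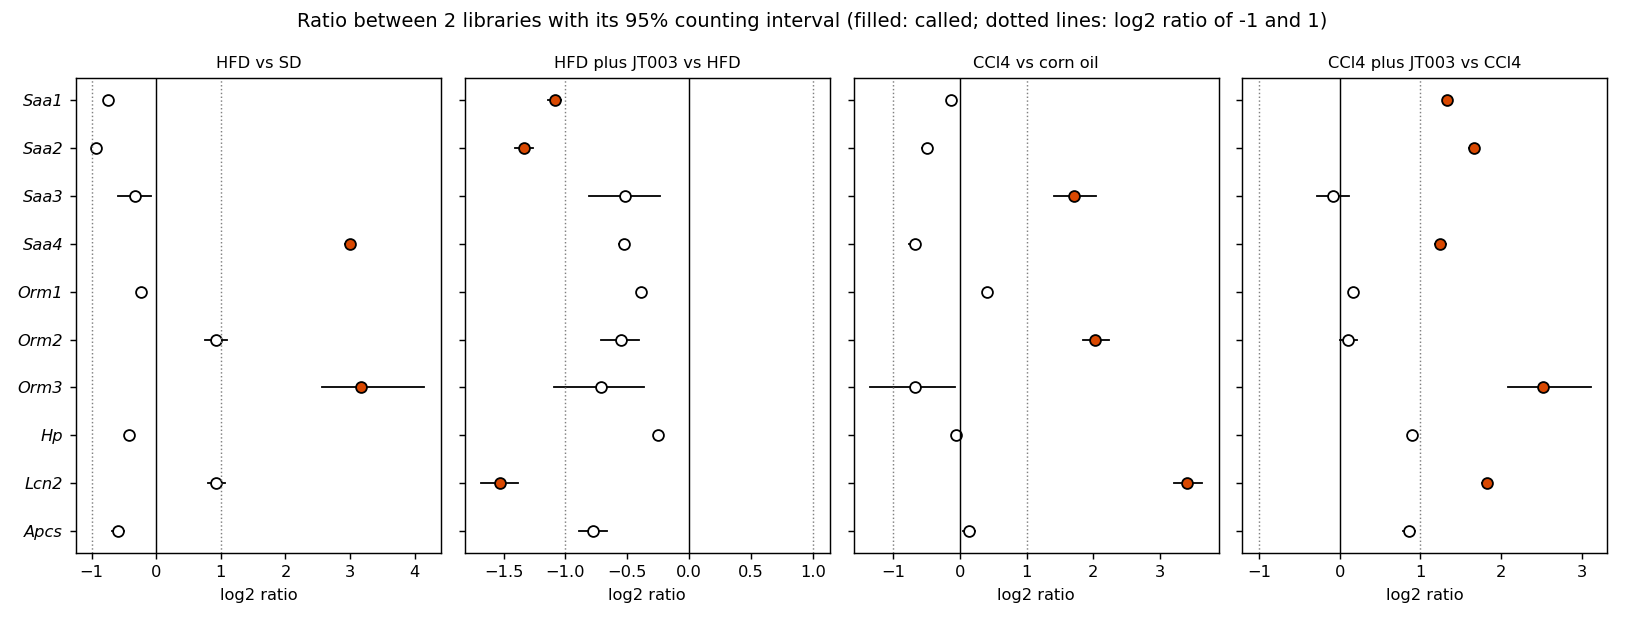
Log2 ratio of each gene between 2 libraries (points, filled where called) with its 95% counting interval (lines, often shorter than the point), 1 panel per comparison with its own horizontal axis. All 10 points lie below 0 for HFD plus JT003 against HFD, and 9 of 10 above 0 for CCl4 plus JT003 against the single CCl4 library.

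In the CCl4 model the vehicle and injured livers were compared first. Relative to corn oil, the CCl4 library had more Lcn2, Orm2 and Saa3, while Saa2 and Saa4 were lower by less than 2-fold and were not called, nor was Saa1, whose direction turned with the scaling. Lcn2 rose from 208 to 2714 reads (log2 ratio 3.41, interval 3.21 to 3.63), Orm2 from 272 to 1363 (2.03, interval 1.85 to 2.23) and Saa3 from 108 to 436 (1.71, interval 1.42 to 2.04). These 3 of 10 were all called higher, and among 17234 genes 7.18% were called, 4.76% higher and 2.41% lower.

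The remaining genes stayed within a doubling. Orm1 was at 0.41, Apcs at 0.14, Saa2 at -0.49, Saa4 at -0.67 and Orm3, with 39 against 52 reads, at -0.67 (interval -1.34 to -0.08). Saa1 at -0.13 and Hp at -0.06 were the nearest to 0, and both changed sign when total reads were used, to 0.10 and 0.17. Total reads moved the median of all genes by 0.23 in this comparison and the share of called genes that were higher from 66.4% to 81.9%. The median over the 10 genes was 0.04, against 0.00 over all genes.

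The CCl4 column of the authors' own table for CCl4 and JT003 holds pooled counts that sum to 2.97 times the CCl4 library. It appears to contain that library, because only 24 genes were below their count there, by 0.99 at most, and subtracting the library leaves 39780549 counts from CCl4 libraries that the table does not name. This rest of the pool differed from the CCl4 library in 7 of the 10 genes, all higher, while 1.67% of all 17471 genes were called (1.44% higher, 0.229% lower). Lcn2 was 6.54-fold higher (36757 reads, log2 ratio 2.71, interval 2.65 to 2.77), Orm3 3.59-fold, Saa2 3.24-fold, Apcs 2.75-fold, Saa1 2.73-fold, Orm2 2.55-fold and Saa4 2.34-fold. Orm1 at 0.71 and Hp at 0.68 did not pass the threshold, and Saa3 was at -0.09 (interval -0.26 to 0.08). The 10 genes took 1.21% of the rest of the pool, against 0.625% of the CCl4 library.

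Measured with the rest of the pool in place of the CCl4 library, 8 of the 10 genes were called above corn oil, where 9.83% of all genes were called (7.29% higher, 2.54% lower). Lcn2 was then 69.5-fold and Orm2 10.4-fold above corn oil, and Saa1, Saa2 and Orm3 changed sign to log2 ratios of 1.32, 1.21 and 1.16. Apcs was at 1.60, Saa3 at 1.62 and Orm1 at 1.11. Saa4 at 0.55 and Hp at 0.62 were not called, but lay above 0 where the CCl4 library lay below it. Whether Saa1 and Saa2 rose with CCl4 therefore depended on which CCl4 counts were taken, whereas Lcn2, Orm2 and Saa3 were called higher with both.

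Markers of other cell types also moved between these sources. The summed level of 10 macrophage markers was 70.8 CPM (counts scaled to the same total in every library) in corn oil, 207 in CCl4, 423 in the rest of the pool and 354 in CCl4 plus JT003. That of 12 neutrophil markers was 14.6, 21.8, 37.9 and 28.3 in the same order. The rest of the pool held 39780549 counts and the CCl4 library 20156841, so raw reads overstate the differences between them. S100a9 had 39 reads in the CCl4 library and 291 in the rest of the pool, a log2 ratio of 1.82 on scaled counts. The red cell gene Hba-a1 had 2099 reads in the CCl4 library and 23626 in the rest of the pool, a log2 ratio of 2.44 on scaled counts. The part of these cells in the levels of Lcn2 and the other genes was not tested.

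JT003 was compared within the CCl4 model last. Relative to the single CCl4 library, CCl4 plus JT003 had more reads of 9 of the 10 genes, and Orm3, Lcn2, Saa2, Saa1 and Saa4 were called higher. Lcn2 rose from 2714 to 9725 reads (log2 ratio 1.83, interval 1.77 to 1.89), Saa2 from 2759 to 8850 (1.67, interval 1.61 to 1.73), Saa1 from 5311 to 13479 (1.33, interval 1.29 to 1.38), Saa4 from 2422 to 5783 (1.24, interval 1.18 to 1.31) and Orm3 from 39 to 236 (2.53, interval 2.09 to 3.11). The 5 of 10 stand beside 4.42% called among 17393 genes, 1.91% higher and 2.51% lower.

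These rises rested on the CCl4 library chosen. Against the rest of the pool none of the 10 genes was called higher in the exact binomial test and Orm2 was called lower (log2 ratio -1.24, interval -1.32 to -1.16), with 4.64% of all genes called (1.28% higher, 3.36% lower). Saa1 was at -0.11, Saa2 at -0.02 (interval -0.06 to 0.01), Saa4 at 0.02, Saa3 at 0.01 and Hp at 0.22, and Lcn2 lay at -0.88 in place of 1.83. Orm3 at 0.70 and Apcs at -0.60 were also within a doubling. The median over the 10 genes was 1.07 against the CCl4 library and -0.07 against the rest of the pool, and the median over all genes was -0.00 and -0.02.

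**Figure D3:**
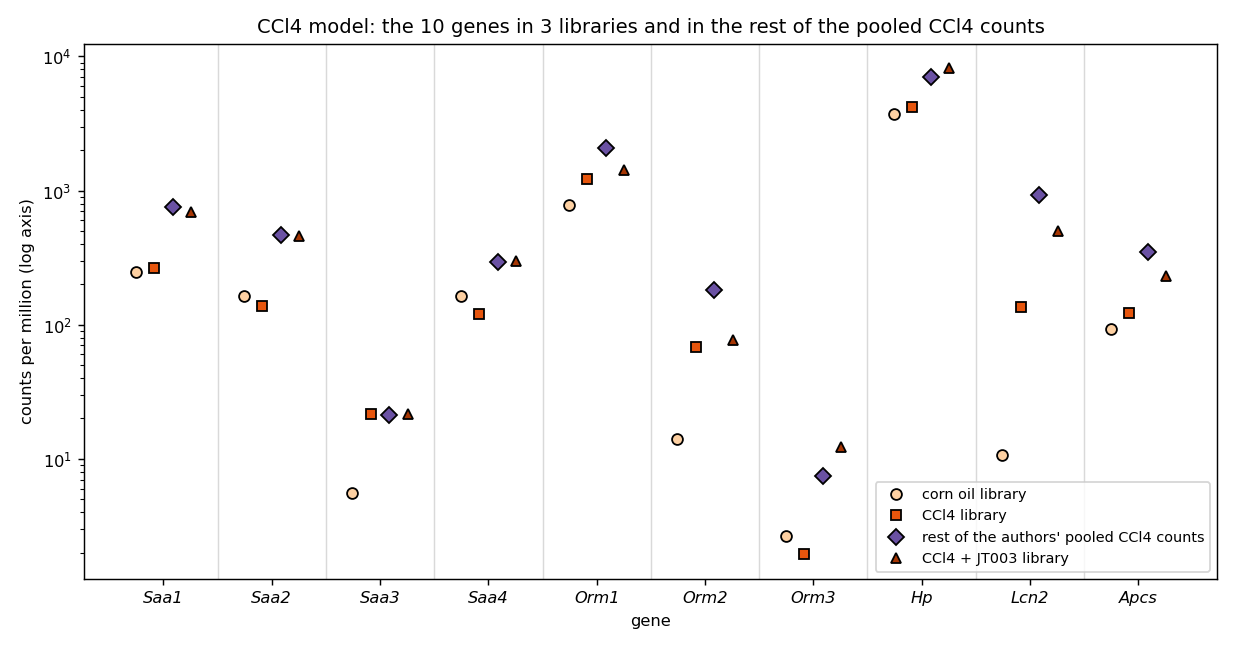
Level in CPM (log axis) of each gene in the corn oil, CCl4 and CCl4 plus JT003 libraries and in the rest of the authors' pooled CCl4 counts, 1 point per source and no error bars. For Saa1, Saa2 and Saa4 the rest of the pool sits beside CCl4 plus JT003 and above the CCl4 library, and is narrowly the highest point for Saa1 and Saa2. For Lcn2, Orm1, Orm2 and Apcs it is the highest point by a wider margin.

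Relative to corn oil, all 10 genes were higher in CCl4 plus JT003 and 7 were called, where 4.95% of all genes were called (3.23% higher, 1.72% lower). Lcn2 was 37.7-fold higher (9725 against 208 reads, log2 ratio 5.24), and the log2 ratio was 2.14 for Orm2, 1.85 for Orm3, 1.63 for Saa3, 1.20 for Saa1, 1.18 for Saa2 and 1.00 for Apcs, which stood at the threshold and was at 0.99 with DESeq2 size factors. Hp at 0.84, Saa4 at 0.57 and Orm1 at 0.57 were not called. Of the genes called among all genes, 65.2% were higher, and 85.7% with total reads, which also brought Hp past the threshold.

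The 2 control libraries also differed from each other. Corn oil had less Lcn2 (log2 ratio -1.62, interval -1.86 to -1.40), Saa1 (-1.48), Saa2 (-1.36) and Saa3 (-1.26) than SD, and more Orm3 (1.72, interval 1.02 to 2.76) and Saa4 (1.12). That is 6 of the 10 genes called between libraries that neither HFD, CCl4 nor JT003 had reached, against 5.42% of all genes (2.18% higher, 3.24% lower). Of those, 40.2% were higher, and 29.9% with total reads. Orm2 at -0.47, Orm1 at 0.34, Apcs at -0.22 and Hp at -0.19 were not called. Macrophage markers summed to 319 CPM in SD and 70.8 in corn oil, and their part in the difference was not tested.

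Counting genes whose intervals lay on opposite sides of 0 in the 2 models, JT003 went with opposite directions for 9 of the 10 genes, Saa3 excepted, when the single CCl4 library was used, and for 2 (Orm3 and Hp) when the rest of the pool was used. With DESeq2 size factors and the single CCl4 library, 8 genes were counted in place of 9. The share of all genes with opposite directions was not computed, so these counts have no background to be read against. For the injury itself, HFD and CCl4 against their controls, 5 genes were opposite with the single CCl4 library and 6 with the rest of the pool. Saa4 and Orm3 rose with HFD and were both at -0.67 with the CCl4 library, but at 0.55 and 1.16 with the rest of the pool. Saa3 was at -0.33 with HFD and rose with CCl4 from either source. These differences were not tested, because no group has a replicate.

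Other acute phase genes, most of them encoding secreted proteins, were read from a list of 20. Of these, 4 were called higher in HFD than in SD: Steap4, a membrane reductase of iron and copper (log2 ratio 2.56), the intracellular metallothioneins Mt2 (1.95) and Mt1 (1.03), which bind zinc, and the protease inhibitor Serpina3m (1.01). Over all genes 2.92% were called higher in that comparison. With JT003 in HFD, the iron hormone gene Hamp was higher (1.33) and Steap4 lower (-1.05), and 15 of the 20 lay below 0, with a median of -0.33. Over all genes 0.743% were called higher and 0.884% lower, and 8784 of 17090 lay below 0. The CCl4 library had more Cd14 (1.17), a lipopolysaccharide receptor, and Itih4 (1.09) and less Mt1 (-1.70) and Mt2 (-1.29) than corn oil, where 4.76% of all genes were called higher and 2.41% lower. The metallothioneins turned direction with the CCl4 source: in the rest of the pool Mt1 was at 0.80 and Mt2 at 1.18 relative to corn oil. Against the CCl4 library, CCl4 plus JT003 was called higher for Mt1 (2.41), Mt2 (1.92), Hamp (1.71) and Lrg1 (1.08), but against the rest of the pool Hamp alone was higher (2.61) and Steap4 lower (-1.41). Over all genes 1.91% were called higher against the CCl4 library, and 1.28% higher and 3.36% lower against the rest of the pool. Of the 20, 8 lay below 0 against the CCl4 library (median 0.19) and 17 against the rest of the pool (median -0.50). Among all genes 8731 of 17393 and 9049 of 17554 lay below 0 in the same order. Relative to corn oil, the rest of the pool was called higher for 7 of the 20, led by Steap4 (2.27), and lower for Hamp (-1.27), beside 7.29% and 2.54% of all genes.

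The cytokine pathways upstream were examined in the same libraries. Of the 15 genes of the IL-6 and STAT3 list, the receptor genes Il6ra (1.09), Osmr (1.02) and Lifr (1.01) were called higher in HFD than in SD and none was called with JT003 in HFD. Over all genes 2.92% were called higher in HFD than in SD, and 1.63% were called with JT003 in HFD. Socs3, the feedback inhibitor that STAT3 induces, was called lower in CCl4 than in corn oil (-1.09, 242 against 425 reads) and higher in CCl4 plus JT003 than in CCl4 (1.13, 537 reads). Over all genes 2.41% were called lower in the former comparison and 1.91% higher in the latter. With the rest of the pool as CCl4 (612 reads of Socs3) no gene of this list was called in either of these comparisons, and Socs3 was at -0.81 relative to corn oil and at 0.85 in CCl4 plus JT003 relative to the rest of the pool. Il6 itself had a single read in the CCl4 library, 1 in CCl4 plus JT003 and 0 in the other 4, where a count of 0 allows up to 3 reads in a library. In the 20-gene IL-1, TNF and NF-kB list, Tnfaip3 (1.68), Il1r1 (1.49) and Tlr2 (1.15) were called higher in HFD than in SD, no gene was called with JT003 in HFD or in the single CCl4 library against corn oil, and 17 of 20 lay below 0 with JT003 in HFD (median -0.27). Among all genes 8784 of 17090 lay below 0 with JT003 in HFD. The rest of the pool, in contrast, was called higher than corn oil for Tnfaip3 (1.88), Tlr4 (1.75), Tlr2 (1.72) and Il1a (1.37), beside 7.29% of all genes. Against the single CCl4 library, CCl4 plus JT003 was called higher for 2 of these 20, among them Nfkbiz (1.03), and against the rest of the pool for none, beside 1.91% and 1.28% of all genes.

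Of the negative acute phase genes, which fall in the classical response, 1 was called in HFD against SD, 1 in HFD plus JT003 against HFD and 1 in CCl4 against corn oil. Over all genes 5.38%, 1.63% and 7.18% were called in the same order. With the rest of the pool against corn oil, 1 was called higher and 1 lower, beside 7.29% and 2.54% of all genes. Of 12 such genes Serpina6, the corticosteroid-binding globulin, was called higher in HFD (2.15) and again in HFD plus JT003 over HFD (1.28), and Trf, transferrin, was called higher than in corn oil both in the CCl4 library (1.19) and in the rest of the pool (1.27). Apoa2, an apolipoprotein of high-density lipoprotein, was called lower than in corn oil in the rest of the pool (-1.35) and not in the CCl4 library. Between CCl4 plus JT003 and CCl4 from either source no gene of this list was called in the exact binomial test. A list of 13 receptors and partners of the proteins was also read. In HFD against SD, 1 was called higher, the fatty acid receptor Cd36 (2.16), and 2 lower, among them Hba-a1 (-1.15). Over all genes 2.92% were called higher and 2.46% lower. With JT003 none was called against HFD or the single CCl4 library, beside 1.63% and 4.42% of all genes. Hmox1, which degrades heme, was the 1 gene called higher with CCl4 (1.20), beside 4.76% of all genes. Against the rest of the pool, Hba-a1 was called lower in CCl4 plus JT003 (-2.44), where 3.36% of all genes were called lower. The rest of the pool was called higher than corn oil for 3 of the 13, among them Hmox1 (1.87) and Hba-a1 (1.48), beside 7.29% of all genes.

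**Figure D4:**
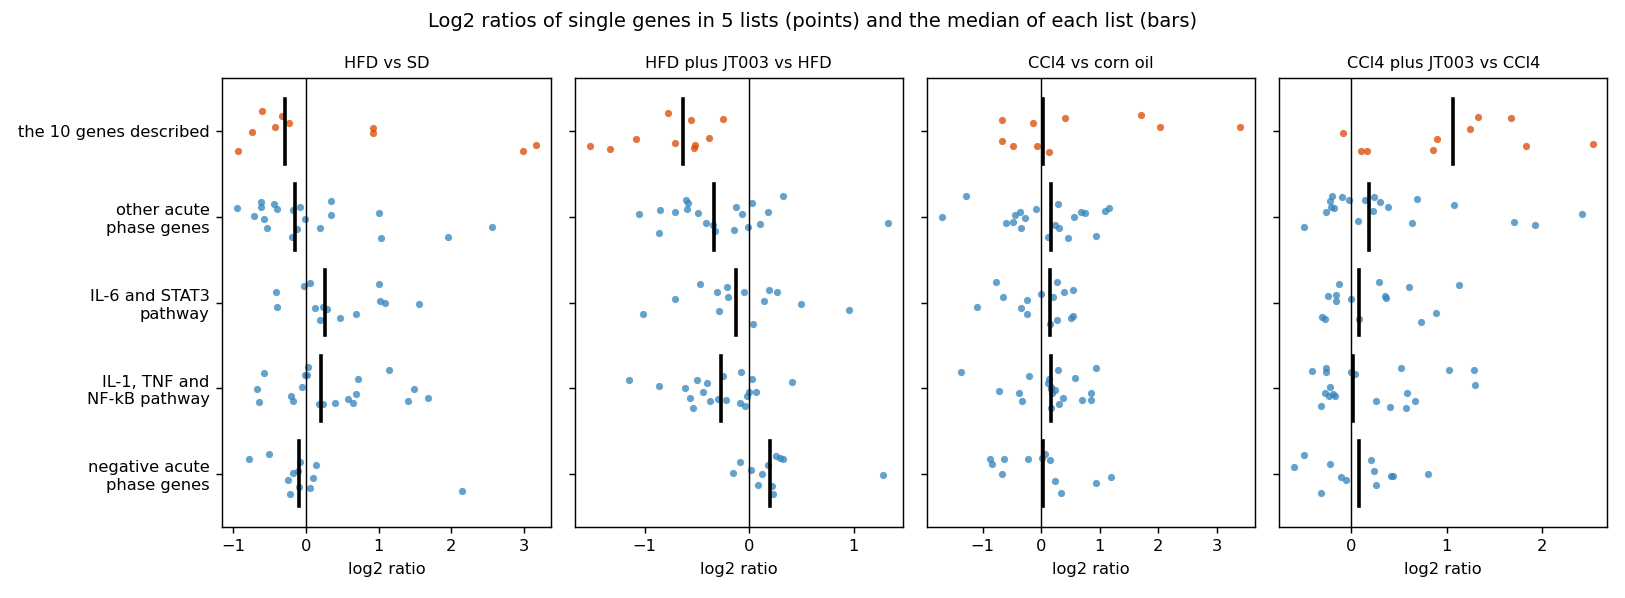
Log2 ratio of each gene (points, jittered vertically) in the 10 genes described and in 4 lists of related genes, with the median of each list as a black bar, for 4 comparisons with their own horizontal axes. The median of the 10 genes is -0.63 for HFD plus JT003 against HFD and 1.07 for CCl4 plus JT003 against the single CCl4 library, farther from 0 than that of the other 4 lists. With the rest of the pool in place of the CCl4 library (not plotted) it was -0.07, nearer 0 than that of the other 4 lists.

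Neutrophil markers summed to 16.9 CPM in SD, 20.5 in HFD alone and 18.6 in HFD plus JT003, and Mpo and Ltf had no reads in SD. This sum hid the single genes. With JT003 in HFD, 11 of the 12 lay below 0 (median -0.51) and 0 were called, while Ly6g alone was at 7.61 CPM in HFD plus JT003. Over all genes 8784 of 17090 lay below 0 in that comparison. The macrophage sum was 319, 345 and 478 in these libraries, so it was highest in HFD plus JT003, where Saa1, Saa2 and Lcn2 were lowest of the 3. Adipocyte markers summed to 13.0, 31.4 and 13.5, and Adipoq and Lep were at 0 in all 3. The sum hid 2 genes that moved differently, since Cfd had 2, 454 and 166 reads and Fabp4 260, 164 and 102. Stellate cell markers, a list of 7, summed to 115, 254 and 174 CPM, and with JT003 in HFD Col1a1 (-1.41) and Col3a1 (-1.32) were called lower while 6 of the 7 lay below 0. Among all genes 0.884% were called lower with JT003 in HFD. Bile duct markers summed to 26.8, 41.2 and 27.3, of which Spp1 alone made up 19.7, 34.0 and 18.6. Of the 5 tested in HFD against SD, 3 lay below 0 (median -0.12) and 0 were called. Over all genes 8490 of 16973 lay below 0 in that comparison and 5.38% were called. Stellate, bile duct and adipocyte sums were thus all highest in HFD, the bile duct sum through Spp1. The part of these cells in the results was not tested.

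In the CCl4 model the stellate markers summed to 72.5 CPM in corn oil, 302 in the CCl4 library, 402 in the rest of the pool and 178 in CCl4 plus JT003. Relative to corn oil, 2 of the 7 were called higher in the CCl4 library and 3 in the rest of the pool. Col1a1 was among them in both (3.13 and 3.29), beside 4.76% and 7.29% of all genes called higher. In these comparisons 2 and 1 of the 7 lay below 0. In CCl4 plus JT003, 2 were called higher than in corn oil and Acta2 lower (-2.12, 45 against 165 reads), beside 3.23% and 1.72% of all genes. The bile duct sum was 44.0 in corn oil and 165, 160.5 and 159 in the others, so it was higher in every source that had received CCl4. Spp1 alone made up 30.0, 129, 131 and 135 of these sums. Among single genes, Sox9 was called lower in CCl4 plus JT003 than in the CCl4 library (-1.09), beside 2.51% of all genes. There 4 of the 6 lay below 0, and 1 of the 6 against the rest of the pool. The part of these cells in the results was not tested either.

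As a description over the 6 libraries, the genes whose scaled levels followed those of the 10 most closely were searched among 10279 genes. The sum of Saa1 and Saa2 was most like Nutf2 (Pearson r 0.98) and Lrg1 (0.95), the latter itself a secreted acute phase protein with 22091 reads in SD, 20735 in HFD, 11681 in HFD plus JT003, 14581 in corn oil, 13075 in CCl4 alone and 27904 in CCl4 plus JT003. The sum of the orosomucoids was most like Tfrc, the transferrin receptor (0.99), and Lcn2 was most like Pamr1 (0.97) and Mapkapk3 (0.96). With 6 libraries and so many genes, high values of r arise readily, and nothing further was drawn from them.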

How the data were processed

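Per the labels and the submitters' processing notes, reads were handled with HISAT, Bowtie2 and RSEM, and the build named is mm9. The authors deposited an expected count (estimated reads per gene, not normalized) and an FPKM per gene and library. Between 69.9% and 70.9% of the counts of a library were whole. Of 4 comparison tables, which hold the authors' own fold changes and p-values, only the pooled CCl4 expected count column deposited there was used, and 7 other expression columns were not. Coordinates are those of RefSeq (GRCm38.p6), not of the deposited files.

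Expected counts were rounded. Library sizes were scaled by TMM (edgeR 4.0.16, R 4.3.3) over a model's 3 libraries, or over all 6 across models. Genes with at least 1 read in either library were tested by a binomial test of the split of their reads, exact and two-sided (scipy 1.17.1), and p-values were adjusted over all of them (Benjamini-Hochberg). A call needed 0.001 on the adjusted p-value and 1 on the log2 ratio in either direction (prior count 2). Intervals are 95% Clopper-Pearson and, like limits for counts of 0, cover counting error only. Scripts (Python 3.11.15, numpy 2.4.6, pandas 2.3.3, plots with matplotlib 3.10.9) were tested on simulated data. Alternatives included DESeq2 1.42.0 size factors.

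The genes and lists were chosen with earlier results of these data known. All 10 genes are named, and from each list at most 4 called genes per comparison, by size of the log2 ratio and with 100 counts or more in the higher library. The rest of the pooled CCl4 counts was added after the data were seen.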

Additional observations from a re-analysis of the deposited data

Results flagged for a closer look

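No group has more than 1 library, so no library was set against others of its group. Results were flagged where the diet model and the CCl4 model moved in opposite directions, with both counting intervals clear of 0, and none of these differences was tested. The share of all genes that met this condition was not computed, so the number flagged has no background to be read against. The values are log2 ratios of the diet model minus those of the CCl4 model, with the single CCl4 library.

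For the injury itself (HFD against SD, and CCl4 against corn oil) the difference was -2.04 for Saa3, 3.67 for Saa4, -0.64 for Orm1, 3.84 for Orm3 and -0.74 for Apcs. Saa4 and Orm3 were higher with HFD and lower with CCl4, and the others the reverse. With the rest of the pooled CCl4 counts, Saa4 and Orm3 lay above corn oil too, at 0.55 and 1.16. Saa1, Saa2 and Hp then met the condition in their place, which made 6 genes instead of 5.

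For JT003 (against HFD, and against CCl4) the difference was -2.42 for Saa1, -3.00 for Saa2, -1.77 for Saa4, -0.55 for Orm1, -0.66 for Orm2, -3.24 for Orm3, -1.15 for Hp, -3.36 for Lcn2 and -1.64 for Apcs. All 9 were lower with JT003 in the diet model and higher in the CCl4 model. Orm2 was included by a narrow margin, at 0.11 in the CCl4 model (interval 0.002 to 0.216), and with DESeq2 size factors 8 genes were flagged in place of 9. With the rest of the pooled CCl4 counts as the CCl4 group, only Orm3 and Hp met this condition, 2 genes in place of 9.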

How the results depend on the processing

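No paired analysis was possible because each group has 1 library, and for the same reason no replicate was left out. Among the single gene ratios, none changed sign with DESeq2 size factors, a prior count of 0.5 or a minimum of 10 counts, and the only call lost under these was that of Apcs between CCl4 plus JT003 and corn oil (0.99 with DESeq2 size factors).

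The counts of genes called moved as follows. With total reads, 4 of the 10 genes were called between HFD and SD instead of 2, and log2(FPKM + 1) and log2(FPKM + 0.1) also gave 4. With an adjusted p-value under 0.05 and no threshold on size, 10 of the genes were called in each comparison of the diet model, 9 between CCl4 and corn oil, 8 between CCl4 plus JT003 and CCl4, and 10 between corn oil and SD. Over all genes that setting called 5885 (HFD against SD), 4322 (HFD plus JT003 against HFD), 6660 (CCl4 against corn oil), 6354 (CCl4 plus JT003 against CCl4), 6572 (HFD plus JT003 against SD), 5668 (CCl4 plus JT003 against corn oil) and 7013 (corn oil against SD), in place of 913, 278, 1237, 768, 1008, 859 and 922. With a coefficient of variation of 0.4 between mice assumed in edgeR's exact test, 0 of the 10 genes were called in 6 comparisons and 1 between CCl4 plus JT003 and corn oil, and over all genes, in the same order, 11, 0, 59, 0, 5, 24 and 6. With log2(FPKM + 0.1) the same order gave 1634, 947, 2298, 1554, 1827, 2116 and 1737 over all genes, and with log2(FPKM + 1) 496 between CCl4 plus JT003 and CCl4, 668 between HFD plus JT003 and SD and 509 between corn oil and SD.

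Some ratios changed sign. Between CCl4 and corn oil, Saa1 went to 0.10 with total reads and 0.11 with either FPKM scale, and Hp to 0.17 and 0.18. Summing the orosomucoids gave -0.16 in place of Orm2 and Orm3 between HFD and SD, -0.56 between HFD plus JT003 and SD, 0.46 in place of Orm3 between CCl4 and corn oil, and 0.33 in place of Orm2 between corn oil and SD. With the pooled CCl4 counts against corn oil, Saa1 was at 0.98, Saa2 at 0.83, Saa4 at 0.25, Orm3 at 0.77 and Hp at 0.42, and with CCl4 plus JT003 against the pool, Orm1 was at -0.34, Orm2 at -0.92, Lcn2 at -0.41 and Apcs at -0.26, with 1 of the 10 genes called (Orm3) and 5 opposite between models. With the rest of the pool, 8 genes were called against corn oil, where Saa1 was at 1.32, Saa2 at 1.21, Saa4 at 0.55, Orm3 at 1.16 and Hp at 0.62. CCl4 plus JT003 against it gave -0.11 for Saa1, -0.025 for Saa2, 0.010 for Saa3, -0.54 for Orm1, -1.24 for Orm2, -0.88 for Lcn2 and -0.60 for Apcs, with 1 gene called and 2 opposite between models. The cause of these shifts was not tested.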
